A study of Mus musculus with 8 samples.

Results

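The genes described are 10 enzymes and receptors of lipid mediator pathways, taken by name from a list of prostaglandin and steroid genes linked to TH2 cells: Hpgds, Ptgs1, Ptgs2, Ptgdr2, Ptgir, Ptger2, Ptger4, Cyp11a1, Star and Alox5ap. They are 10 of the 54146 genes in the deposited tables. They were chosen by name and by no threshold on measured values, but with earlier results of these data known. Their RNA was measured by RNA-seq, of polyadenylated RNA by the paper's methods, in EL4 cells, a C57BL/6 mouse T lymphoblast line. The aim was to find how T-bet and GATA3, expressed singly or together, change gene expression. There were 4 lines with 2 libraries each. GFP + Plum cells carried control vectors and no added factor, T-bet + Plum cells expressed FLAG-T-bet, GFP + GATA3 cells expressed HA-GATA3, and T-bet + GATA3 cells expressed both. All 8 libraries came from cells stimulated for 4 h with 50 ng/ml phorbol 12-myristate 13-acetate (PMA) and 1 µM ionomycin, so that no unstimulated state was measured here. The lines were made by retroviral transduction and drug selection of a lymphoma line, which has its own Gata3. Replicates are harvests of the same line on different days, and p-values therefore measure the spread between harvests and not between independently made lines.

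Prostanoids are made from arachidonic acid, which phospholipases release from membranes. The cyclooxygenases Ptgs1 and Ptgs2 turn it into prostaglandin H2, and terminal synthases such as Hpgds turn that into the active products. Prostaglandin D2 is a product of TH2 cells and of mast cells and acts on TH2 cells through its receptor Ptgdr2 (also named CRTH2). Prostaglandin E2 and prostacyclin act on T cells through receptors that raise cyclic AMP. A parallel route through 5-lipoxygenase, which needs the membrane protein Alox5ap, makes leukotrienes. Cyp11a1 makes pregnenolone from cholesterol in mitochondria, the first step of steroid synthesis, and TH2 cells are among the lymphocytes known to express it.

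Libraries held 8038284 to 16003190 counts, and a count of 3 corresponded to 0.187 to 0.373 CPM, the counts of a gene in each 1000000 counts of its library. The added factors were present in the lines that carry them. Tbx21, which encodes T-bet, lay between 129 and 160 CPM in the libraries with FLAG-T-bet and between 1.78 and 3.59 CPM in the others. Gata3 lay between 165 and 326 CPM in the libraries with HA-GATA3 and between 25.8 and 53.3 CPM in the others. It was lower with FLAG-T-bet, at 204 and 165 CPM in T-bet + GATA3 cells against 283 and 326 in GFP + GATA3 cells. Without HA-GATA3 it stood at 25.8 and 34.9 CPM in T-bet + Plum cells against 39.8 and 53.3 in GFP + Plum cells. Its averaged FLAG-T-bet log2 FC was -0.67 (FDR 0.0174), and neither single comparison passed the test (FDR 0.146 and 0.0789). Comparisons that add FLAG-T-bet were thus not made at equal Gata3 RNA levels. Of 8 T cell markers, 7 passed the filter on low counts, Cd3e and Thy1 among them. Cd247 did not pass, with at most 10 counts in a library. The summed level of the 8 was 1009 to 1244 CPM without FLAG-T-bet and 1226 to 1533 CPM with it. Within that list Cd2, Lck and Cd3d rose with FLAG-T-bet when averaged over both GATA3 states, beside 8.55% of all genes. For that effect Cd3e, Cd3g, Lat and Thy1 did not pass the test, and Cd3d was lost on the log2(TPM + 1) scale (FDR 0.0569). Between T-bet + Plum and GFP + Plum cells 3 of the 7 tested markers rose, beside 4.04% of all genes. Between T-bet + GATA3 and GFP + GATA3 cells 1 of the 7 rose, beside 3.73%. A gene is said to have risen or fallen where edgeR's quasi-likelihood test gave an FDR of at most 0.05 over the 14791 genes tested, and it is called where its log2 FC also exceeded 1.5 in size. Of the 10 genes, 7 passed the filter and were tested. In bulk RNA, fewer cells that express a gene and less RNA per cell cannot be told apart.

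Hpgds fell in both comparisons that add FLAG-T-bet, while Ptger4, the EP4 receptor for prostaglandin E2, rose. Both genes lie on the minus strand of build GRCm38, Hpgds (ENSMUSG00000029919.5) at chr6:65117293-65144908 and Ptger4 (ENSMUSG00000039942.15) at chr15:5206661-5244187. Promoter sequence from RefSeq (GRCm38.p6) matched 8 of the 10 genes, and Star and Alox5ap were not in that table. The stretches before the first annotated exon are shown for Hpgds, Ptgs2 and Ptger4. Their mean levels differed between lines with and without FLAG-T-bet, although the Ptgs2 libraries overlapped. For Cyp11a1, the only gene of these with a T-box match, the stretch before the RefSeq start site at 57998024 is shown, which lies upstream of the Gencode gene start at 58006411. They lie at chr6:65144909-65144980 (minus strand, 72 bases) for Hpgds, at chr1:150099781-150100030 (plus strand, 250 bases) for Ptgs2, at chr15:5244188-5244437 (minus strand, 250 bases) for Ptger4 and at chr9:57997774-57998023 (plus strand, 250 bases) for Cyp11a1. Each is written 5′ to 3′, and capitals mark the match.
Hpgds: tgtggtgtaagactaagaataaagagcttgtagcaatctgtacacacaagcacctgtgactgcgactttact
Ptgs2: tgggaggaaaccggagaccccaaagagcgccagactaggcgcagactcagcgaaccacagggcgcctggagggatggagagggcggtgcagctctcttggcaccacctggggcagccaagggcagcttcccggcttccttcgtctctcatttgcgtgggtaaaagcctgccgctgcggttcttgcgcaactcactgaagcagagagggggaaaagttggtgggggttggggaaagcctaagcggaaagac
Ptger4: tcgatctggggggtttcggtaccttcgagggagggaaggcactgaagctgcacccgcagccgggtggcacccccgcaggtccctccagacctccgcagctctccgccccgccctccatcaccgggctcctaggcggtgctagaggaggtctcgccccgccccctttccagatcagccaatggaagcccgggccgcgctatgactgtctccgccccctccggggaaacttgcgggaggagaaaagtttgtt
Cyp11a1: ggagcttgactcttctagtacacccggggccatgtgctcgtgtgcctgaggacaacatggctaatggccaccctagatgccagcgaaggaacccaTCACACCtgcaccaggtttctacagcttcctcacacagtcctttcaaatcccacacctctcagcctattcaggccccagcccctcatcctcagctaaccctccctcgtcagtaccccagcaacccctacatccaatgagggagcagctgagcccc

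The T-box motif was searched as GGTGTGA and the GATA motif as the letters GATA with A or T before them and A or G after them, on both strands of the 300 bases around each RefSeq start site. The T-box letters were in the Cyp11a1 window, on the strand opposite to the gene and with its first base at -155 from the start site, and in no other window of the 8 genes. Of 32851 promoter windows of this length, 3.979% held them. GATA letters were in the Ptger2 window and in a second Cyp11a1 window, against 29.76% of all windows. The windows of Hpgds, Ptgs2 and Ptger4 held neither motif. Their bases before the first exon differed in composition, with 41.67% G and C for Hpgds, 61.6% for Ptgs2 and 66.8% for Ptger4. These matches are descriptions of letters, and no binding was measured in these libraries.

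**Figure D1:**
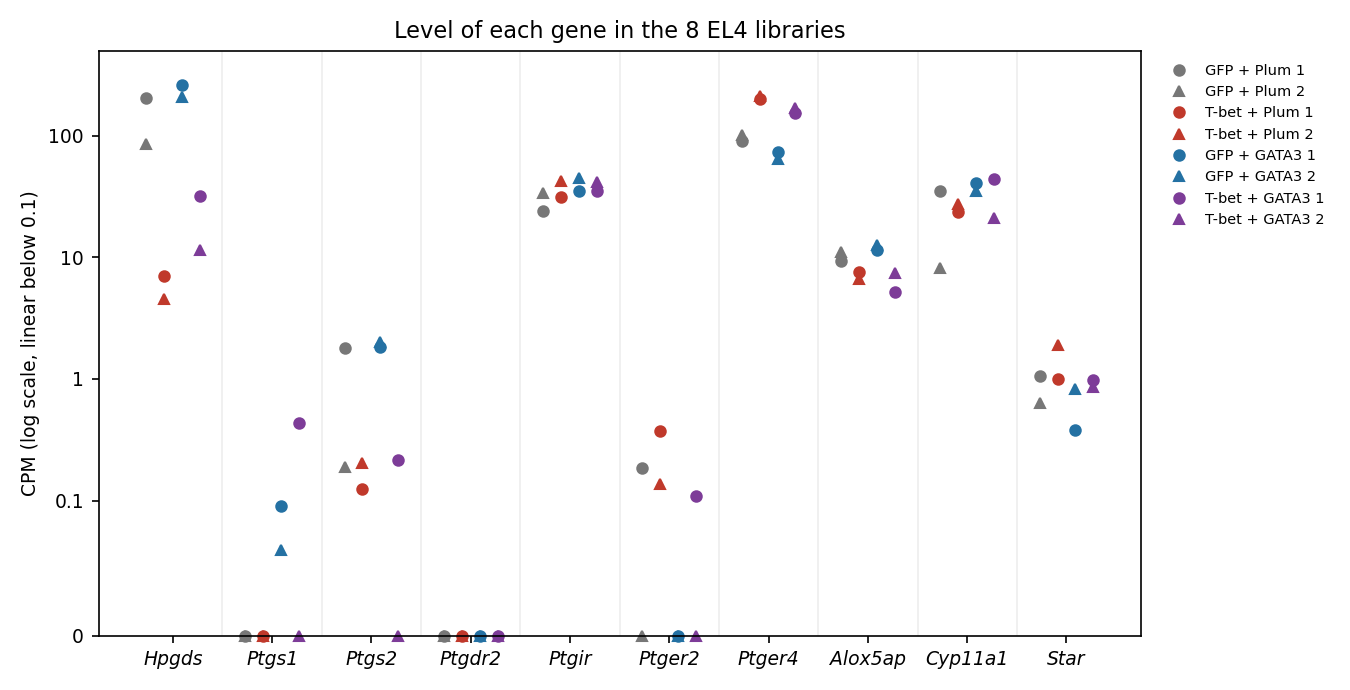
Level of each of the 10 genes in CPM (y axis, log scale, linear below 0.1) in the 8 libraries, coloured by line, with circles for replicate 1 and triangles for replicate 2. The 4 libraries with FLAG-T-bet lie below the others for Hpgds and Alox5ap and above them for Ptger4, and Ptgdr2 lies at 0 throughout.

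Hpgds encodes hematopoietic prostaglandin D synthase, the enzyme that makes prostaglandin D2 in cells of the immune system. It had 3296 and 1357 counts in GFP + Plum cells (204 and 86.1 CPM), 56 and 66 in T-bet + Plum cells (6.97 and 4.51 CPM), 2729 and 3305 in GFP + GATA3 cells (261 and 210 CPM), and 295 and 173 in T-bet + GATA3 cells (31.9 and 11.5 CPM). Every library with FLAG-T-bet lay below every library without it. With FLAG-T-bet, Hpgds was 26.0-fold lower in cells without HA-GATA3 (log2 FC -4.70, SE 0.60, FDR 0.00397) and 11.0-fold lower in cells with it (log2 FC -3.47, SE 0.54, FDR 0.00939). The log2 FC averaged over both GATA3 states was -4.08 (SE 0.41, FDR 0.000506), a 16.9-fold fall. The averaged effect is made from the same libraries and adds no independent replicate.

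The call in cells with HA-GATA3 and the averaged call passed the threshold under each of the 16 and 15 alternatives that gave a value. The call in cells without HA-GATA3 did so under 15 of 16, and was lost without replicate 2 of T-bet + Plum (log2 FC -4.38, FDR 0.0651). Leaving out replicate 1 of GFP + Plum gave the smallest difference of that comparison, -3.95, and leaving out its replicate 2 the largest, -5.19.

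Adding HA-GATA3 left Hpgds higher in each setting, but neither difference passed the test. Between GFP + GATA3 and GFP + Plum cells the log2 FC was 0.70, with a 95% interval from -0.41 to 1.81 (FDR 1). Between T-bet + GATA3 and T-bet + Plum cells it was 1.93, with an interval from 0.57 to 3.29 (unadjusted p = 0.0111, FDR 1). Averaged over both T-bet states it was 1.31, with an interval from 0.44 to 2.19 (unadjusted p = 0.00865, FDR 0.606). The difference between the 2 T-bet effects, which is the interaction term, was 1.23, with an interval from -0.52 to 2.98 (FDR 1.00). Leaving out the filter on low counts raised the number of genes tested to 30930. There edgeR called Hpgds both between T-bet + GATA3 and T-bet + Plum cells and for the interaction, and under no other alternative. At least 1 alternative gave an FDR under 0.05 for GFP + GATA3 against GFP + Plum cells and for the averaged HA-GATA3 effect. No alternative called Hpgds in either. The intervals above are for a single gene and are not adjusted for the number of genes.

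The order of the lines by Hpgds level was therefore GFP + GATA3, GFP + Plum, T-bet + GATA3 and T-bet + Plum. The middle neighbours differed, with T-bet + GATA3 cells 6.81-fold below GFP + Plum cells (log2 FC -2.77, SE 0.53, FDR 0.0236). This call was lost without replicate 1 of GFP + Plum (log2 FC -2.02, FDR 0.0618), without replicate 2 of T-bet + GATA3 (log2 FC -2.22, FDR 0.0677) and in a fit of those lines alone (FDR 0.0920). The outer neighbours did not differ beyond their spread after adjustment. Replicates of GFP + Plum and of T-bet + GATA3 stood furthest apart, by 1.24 and 1.46 on the log2 CPM scale, against 0.32 in GFP + GATA3 and 0.61 in T-bet + Plum.

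The reads of Hpgds were divided by the authors' quantification among 3 annotated transcripts. The protein-coding transcript of 3476 bases took 51.6% to 72.7% of the gene's counts in the 8 libraries. A retained-intron transcript of 420 bases took 8.86% to 20.8% of the counts but 49.4% to 72.7% of the gene's TPM, a share of all transcripts that takes length into account. A further retained-intron transcript of 3891 bases took 17.2% to 27.6% of the counts. The protein-coding transcript alone had 39.8 and 14.7 TPM in GFP + Plum cells, 1.56 and 0.722 in T-bet + Plum cells, 50.4 and 41.6 in GFP + GATA3 cells, and 5.70 and 2.16 in T-bet + GATA3 cells. Its libraries with and without FLAG-T-bet did not overlap either. A TPM of the whole gene, 3.90 to 211 over the 8 libraries, thus rests largely on the shortest transcript.

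**Figure D2:**
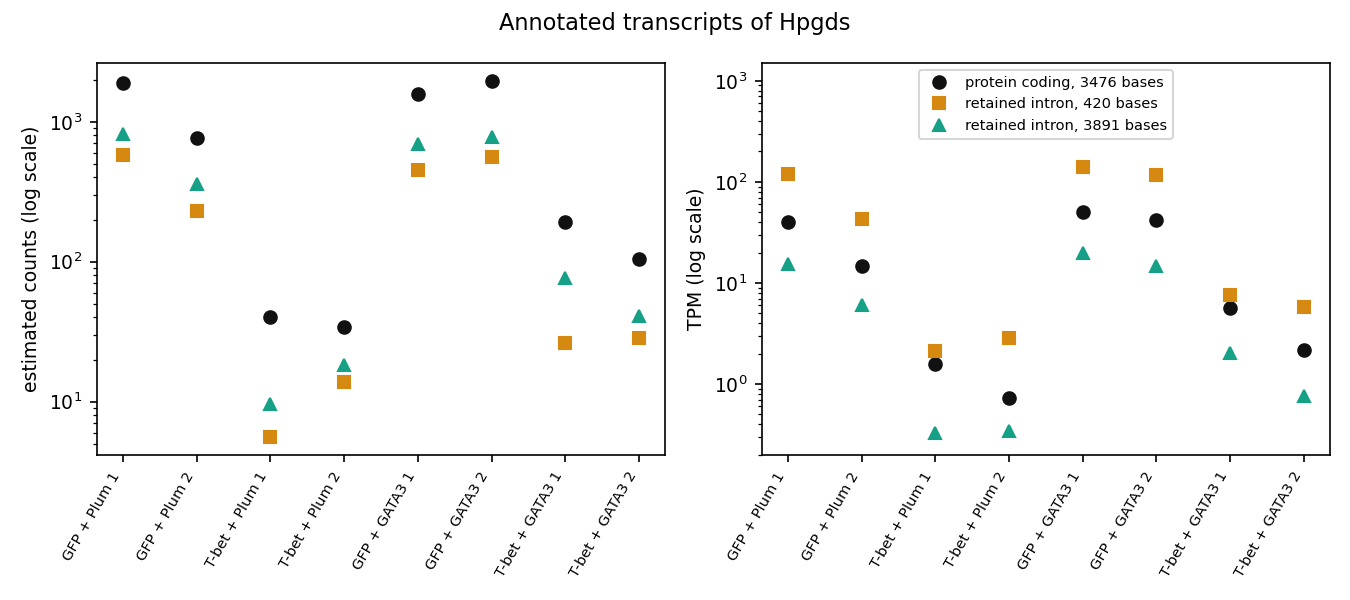
Estimated counts (left) and TPM (right) of the 3 annotated Hpgds transcripts in each of the 8 libraries, both on log axes, with a symbol for each transcript. The coding transcript holds the most counts and the 420-base transcript the most TPM in every library, and each of the 3 is lower in all 4 libraries with FLAG-T-bet.

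Of the cyclooxygenases, which act before Hpgds, Ptgs1 was at or near 0 and Ptgs2 was low. Ptgs1, the constitutive enzyme, had no count in either GFP + Plum or either T-bet + Plum library, 1 count in each GFP + GATA3 library, and 4 and 0 in the T-bet + GATA3 libraries. It did not pass the filter, and no difference was detectable at this depth. Ptgs2, the enzyme that many cells induce on stimulation, had 29 and 3 counts in GFP + Plum cells, 1 and 3 in T-bet + Plum cells, 19 and 32 in GFP + GATA3 cells, and 2 and 0 in T-bet + GATA3 cells. Replicate 2 of GFP + Plum (0.190 CPM) lay within the range of the FLAG-T-bet libraries (0 to 0.216 CPM), so the groups overlapped, while the other 3 libraries without FLAG-T-bet were at 1.79 to 2.03 CPM.

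Averaged over both GATA3 states, Ptgs2 fell with FLAG-T-bet and was called (log2 FC -3.40, SE 0.87, FDR 0.0346). It passed the filter on low counts only through libraries without FLAG-T-bet, the group where it is high, so that a gene at this level was tested only because it differed. In all, 83 counts came from the libraries without FLAG-T-bet and 6 from those with it, a ratio of CPM of 11.2 with an exact 95% interval from 4.92 to 31.3 that covers counting error only. Neither single comparison passed the test, with log2 FC -2.45 (FDR 0.305) without HA-GATA3 and -4.35 (FDR 0.0945) with it. The averaged call was lost when 6 of the 8 libraries were left out in turn, each of them except replicate 2 of GFP + Plum and replicate 1 of T-bet + GATA3, and the smallest of these differences in size was -2.24, without replicate 1 of GFP + Plum (FDR 0.119). It was also lost with offsets for transcript length (log2 FC -2.08, FDR 0.288) and on the log2(TPM + 1) scale, which understates changes of low genes (log2 FC -0.25, FDR 0.335). Adding HA-GATA3 gave 0.95 (FDR 1) without FLAG-T-bet and -0.95 (FDR 1) with it.

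Ptger4 was the receptor that changed. It encodes the EP4 receptor for prostaglandin E2, which couples to cyclic AMP. It had 1456 and 1597 counts in GFP + Plum cells (90.1 and 101.3 CPM), 1615 and 3085 in T-bet + Plum cells (201 and 211 CPM), 770 and 1024 in GFP + GATA3 cells (73.7 and 64.9 CPM), and 1428 and 2537 in T-bet + GATA3 cells (154 and 169 CPM). Every library with FLAG-T-bet lay above every library without it, and replicates lay within 0.18 of each other on the log2 CPM scale.

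With FLAG-T-bet, Ptger4 was 2.15-fold higher in cells without HA-GATA3 (log2 FC 1.11, SE 0.12, FDR 0.00208) and 2.33-fold higher in cells with it (log2 FC 1.22, SE 0.13, FDR 0.00150). The averaged effect was 1.16 (SE 0.088, FDR 0.000133). None of these exceeded 1.5 on the log2 scale, so Ptger4 rose but was not called. Each passed the FDR threshold under all of the 16, 16 and 15 alternatives that gave a value. The interaction term was 0.12, with a 95% interval from -0.29 to 0.52 (FDR 1.00).

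HA-GATA3 went with lower Ptger4 levels, but these differences did not pass the test. The log2 FC was -0.47 in cells without FLAG-T-bet, with a 95% interval from -0.75 to -0.18 (unadjusted p = 0.00550, FDR 0.690). It was -0.35 in cells with FLAG-T-bet, with an interval from -0.63 to -0.067 (unadjusted p = 0.0213, FDR 1), and -0.41 averaged over both (FDR 0.271). T-bet + GATA3 cells lay above GFP + Plum cells by 0.76 (FDR 0.0126), which was lost without replicate 1 of GFP + Plum (FDR 0.0590), without replicate 2 of T-bet + GATA3 (FDR 0.0716), in a fit of those lines alone (FDR 0.0730) and on the log2(TPM + 1) scale (FDR 0.0985). The order of the lines was thus T-bet + Plum, T-bet + GATA3, GFP + Plum and GFP + GATA3, the reverse of the order for Hpgds, and in both orders the outer neighbours did not differ after adjustment.

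**Figure D3:**
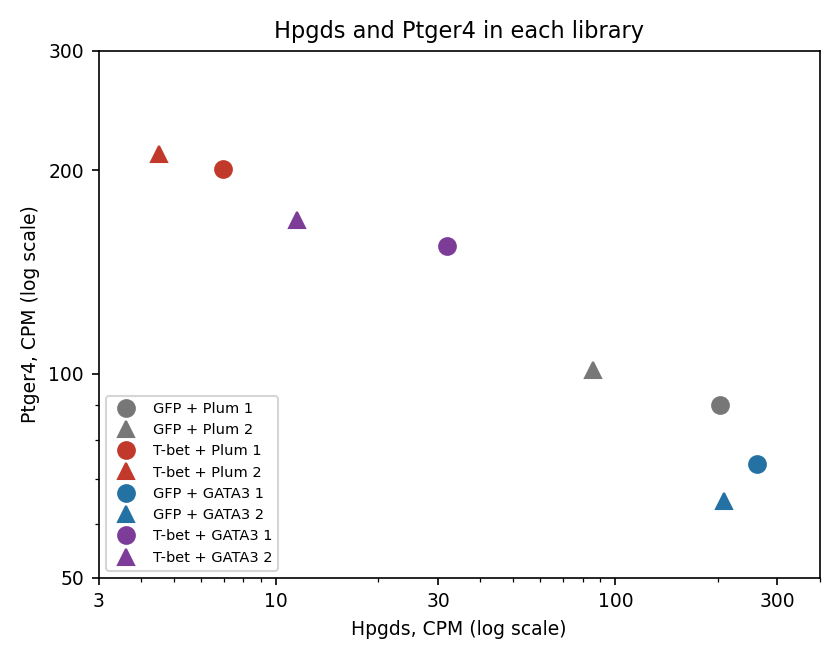
Hpgds (x axis) against Ptger4 (y axis) in CPM, both log scales, with a point for each of the 8 libraries, coloured by line. Libraries with FLAG-T-bet sit at 4.51 to 31.9 CPM of Hpgds and 154 to 211 CPM of Ptger4, and those without it at 86.1 to 261 and 64.9 to 101.3 CPM.

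The reads of Ptger4 were divided between protein-coding transcripts of 3264 bases (37.0% to 57.2% of counts) and 3312 bases (42.8% to 63.0%). Ttc33, on the opposite strand, shares 82 of the 6648 exonic bases of Ptger4, and the sources used here do not state whether strand was used in counting. Ttc33 stood at 26.9 to 35.0 CPM in the 8 libraries and did not follow Ptger4 (averaged FLAG-T-bet log2 FC -0.067, FDR 0.704).

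Ptgir, the prostacyclin receptor at chr7:16906490-16910905, was detected in every library at a level that varied little. It stood at 24.2 and 33.7 CPM in GFP + Plum cells, 31.5 and 42.1 in T-bet + Plum cells, 35.4 and 45.1 in GFP + GATA3 cells, and 35.1 and 41.8 in T-bet + GATA3 cells. Both GFP + Plum libraries lay below the libraries of the lines with HA-GATA3, and the other lines overlapped. The averaged FLAG-T-bet difference was 0.14, with a 95% interval from -0.22 to 0.50 (FDR 0.602), and the averaged HA-GATA3 difference was 0.27, with an interval from -0.093 to 0.63 (FDR 1.00). Changes of 1.5 on the log2 scale lie outside both intervals.

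The other receptors of the list were absent or nearly so. Ptgdr2, the receptor through which prostaglandin D2 acts on TH2 cells, had no count in any of the 8 libraries, which hold 105056545 counts in all and allow a level of up to 0.0286 CPM, a limit of 3 counts over all libraries that covers counting error only. Ptger2, the EP2 receptor, had 9 counts in all, 3 and 0 in GFP + Plum cells, 3 and 2 in T-bet + Plum cells, 0 and 0 in GFP + GATA3 cells, and 1 and 0 in T-bet + GATA3 cells. Neither passed the filter, so no difference was detectable at this depth.

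Alox5ap, the protein that presents arachidonic acid to 5-lipoxygenase, was lower in every library with FLAG-T-bet. It stood at 9.41 and 10.97 CPM in GFP + Plum cells, 7.59 and 6.63 in T-bet + Plum cells, 11.5 and 12.7 in GFP + GATA3 cells, and 5.19 and 7.38 in T-bet + GATA3 cells. The averaged log2 FC was -0.73 (SE 0.16, FDR 0.0211), a 1.66-fold fall that is under the call threshold. Neither single comparison passed the test, with -0.52 (FDR 0.264) without HA-GATA3 and -0.93 (FDR 0.0584) with it. The averaged FDR rose above 0.05 when 6 of the 8 libraries were left out in turn, each of them except replicate 1 of GFP + Plum and replicate 2 of T-bet + GATA3, and with offsets for transcript length, with 0.0895 as its highest value, while the log2 FC stayed between -0.91 and -0.64 when libraries were left out. Its partner Alox5, the 5-lipoxygenase itself, had no count in any library.

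Cyp11a1, the side-chain cleavage enzyme of steroid synthesis at chr9:58006411-58027023, was expressed in all lines and passed no test in the main fit. It stood at 35.0 and 8.18 CPM in GFP + Plum cells, 23.5 and 27.2 in T-bet + Plum cells, 40.5 and 35.1 in GFP + GATA3 cells, and 44.3 and 21.1 in T-bet + GATA3 cells. Replicate 2 of GFP + Plum was the lowest library and lay 2.08 below replicate 1 on the log2 CPM scale. The FLAG-T-bet difference was 0.24 (FDR 0.875) without HA-GATA3 and -0.22 (FDR 0.889) with it. The averaged difference of 0.0095 had a 95% interval from -0.93 to 0.95, and its sign changed with the scaling. The averaged HA-GATA3 difference was 0.58, with an interval from -0.36 to 1.52 (FDR 1.00). At least 1 alternative gave an FDR under 0.05 for this difference and for GFP + GATA3 against GFP + Plum cells. No alternative called Cyp11a1 in either.

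The coding transcript of 2120 bases took 54.1% to 71.6% of the Cyp11a1 counts, and a retained-intron transcript of 3439 bases took 22.2% to 34.8%. The lincRNA Gm17322 starts before Cyp11a1 on the same strand and shares 145 of the 4804 exonic bases of Cyp11a1. It had 75.5 to 176 CPM, and its lowest library was also replicate 2 of GFP + Plum. The Cyp11a1 promoter window shown above ends beside the start of this lincRNA. How far reads were divided between them was not tested.

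Star, which carries cholesterol into mitochondria ahead of Cyp11a1, was at the edge of detection. It had 17 and 10 counts in GFP + Plum cells, 8 and 28 in T-bet + Plum cells, 4 and 13 in GFP + GATA3 cells, and 9 and 13 in T-bet + GATA3 cells. As CPM, both GFP + GATA3 libraries (0.383 and 0.824) lay below those of the lines with FLAG-T-bet (0.865 to 1.91), and GFP + Plum (1.05 and 0.634) overlapped with the others. No comparison passed the test, with an averaged FLAG-T-bet difference of 0.68 (95% interval from -0.23 to 1.59, FDR 0.306). Per length, as TPM, the mean levels over the 8 libraries were 81.7 for Hpgds, 43.7 for Ptger4, 18.8 for Alox5ap, 16.2 for Cyp11a1, 12.1 for Ptgir, 0.393 for Star and 0.268 for Ptgs2. Short transcripts weigh on this order, for Hpgds as given above. For Alox5ap the coding transcript of 1251 bases took 10.8% to 20.4% of the TPM, and transcripts of 452 and 504 bases the rest. By counts in all libraries together the order was Ptger4 (128.6 CPM), Hpgds (107.3), Ptgir (36.4), Cyp11a1 (28.4), Alox5ap (9.16), Star (0.971) and Ptgs2 (0.847).

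**Figure D4:**
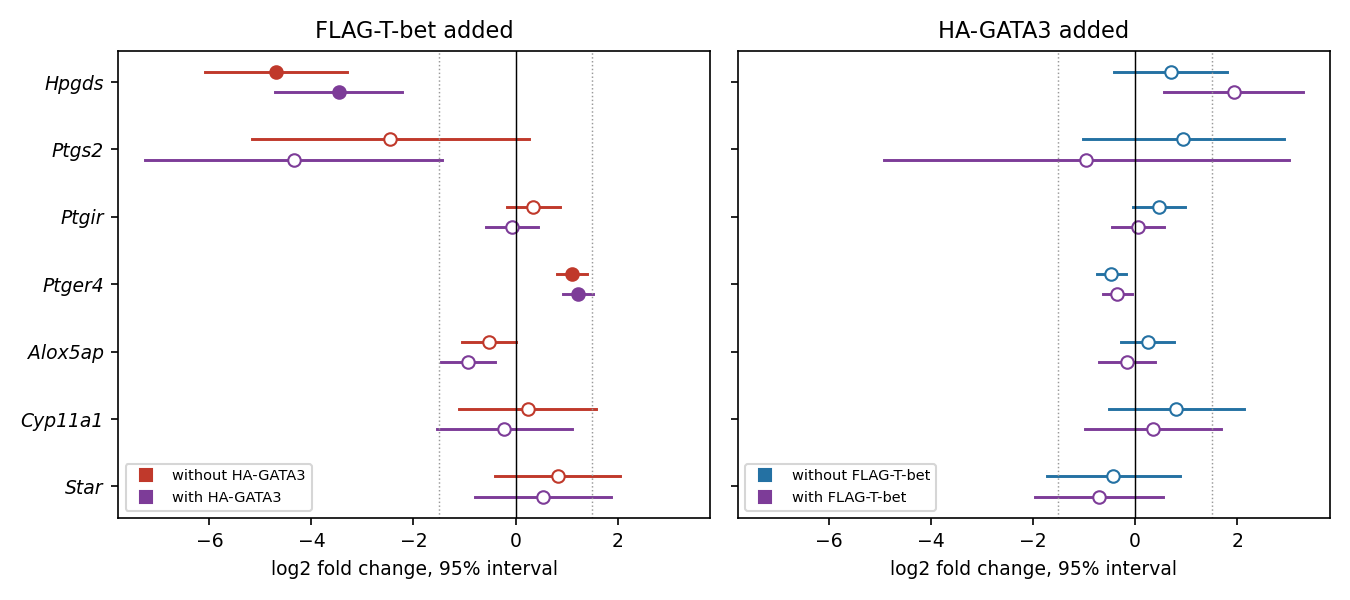
Log2 FC of the 7 tested genes when FLAG-T-bet (left) or HA-GATA3 (right) was added, each without and with the other factor, with bars for 95% intervals and dotted lines at 1.5 in size. Filled points have an FDR of at most 0.05, which holds for Hpgds and Ptger4 on the left and for none on the right.

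Counted over the 7 tested genes, Hpgds was called in each comparison of a line with FLAG-T-bet against a line without it. It was the only 1 called, lower, between T-bet + Plum and GFP + Plum, where 3.02% of all genes tested were called (0.892% lower). The same held between T-bet + GATA3 and GFP + GATA3, against 2.85% of all genes (0.859% lower), and between T-bet + GATA3 and GFP + Plum, against 2.61% (0.669% lower). These calls depend in part on single libraries, as given for Hpgds above. By FDR alone, Hpgds and Ptger4 passed in each of these comparisons, against 6.2%, 5.77% and 4.87% of all genes. For Ptger4, which rose, the shares of all genes that rose were 4.04%, 3.73% and 3.44%, and for Hpgds the shares that fell were 2.16%, 2.05% and 1.43%. For the FLAG-T-bet effect averaged over both GATA3 states, Hpgds and Ptgs2 were called, against 4.5% of all genes (1.59% lower), and 1 of them was left when any of 6 libraries was left out. By FDR alone 4 passed, with Hpgds, Ptgs2 and Alox5ap lower and Ptger4 higher, against 15.2% of all genes (8.55% higher and 6.61% lower). Ptgs2 is in both counts, although it passed the filter only through the libraries without FLAG-T-bet, the group where it is high. The median log2 FC of the 7 was 0.0095 for that effect, beside 0.017 over all genes, since its members went both ways.

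No tested gene of the list was called when HA-GATA3 was added. The share of all genes called by edgeR was itself 0.0203% between GFP + GATA3 and GFP + Plum, 0.0338% between T-bet + GATA3 and T-bet + Plum and 0.0473% for the averaged effect. At an unadjusted p under 0.05 there were 1, 2 and 2 of the 7 genes, beside 547, 559 and 733 of all 14791 genes tested. By FDR alone none of the 7 passed either, against 0.0203%, 0.0338% and 0.0608% of all genes, and DESeq2 called none of them. Neither was any called for the interaction (0% of all genes by edgeR). For it 0 of the 7 had an unadjusted p under 0.05, beside 381 of the 14791 genes tested. Libraries with FLAG-T-bet lay entirely above the others for 1 of the 7 genes, Ptger4, beside 12.5% of all genes, and entirely below them for 2, Hpgds and Alox5ap, beside 10.2%. Libraries with HA-GATA3 did neither for any of the 7, beside 0.825% and 0.798% of all genes.

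The rest of the pathways was read from lists written from general knowledge. Among 11 genes of arachidonate release 6 passed the filter and none rose or fell with FLAG-T-bet on average, and the highest by TPM were Lpcat3, which loads arachidonate into phospholipids (log2 FC -0.33, FDR 0.137), and Plaa, an activator of phospholipase A2 (-0.098, FDR 0.566). Among 9 other prostanoid synthases 4 passed the filter and 1 was called, lower, beside 1.59% of all genes for that effect, namely Ptgds, the other prostaglandin D synthase. It had 13 and 11 counts in GFP + Plum cells, 2 and 5 in T-bet + Plum cells, 12 and 12 in GFP + GATA3 cells, and 2 and 4 in T-bet + GATA3 cells. Its libraries with and without FLAG-T-bet did not overlap (averaged log2 FC -1.59, SE 0.40, FDR 0.0321), on counts that are near the limit of detection, and it too passed the filter only through the libraries without FLAG-T-bet. This call was lost whichever of the 8 libraries was left out and with DESeq2, with an FDR of 0.19 at most, and Ptgds was also under the fold threshold with length offsets (log2 FC -1.48) and on log2(TPM + 1) (-0.72).

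Among 6 other prostanoid receptors 1 passed the filter, Tbxa2r, the thromboxane receptor, at 26.1 to 51.4 CPM (averaged log2 FC -0.26, FDR 0.476), and the next by level, Ptger1, had at most 8 counts in a library. Among 6 genes of transport and breakdown 5 passed the filter, and the highest by TPM were Ptgr2, which reduces 15-keto prostaglandins (0.031, FDR 0.886), and the exporter Abcc4 (-0.22, FDR 0.328). In that list 1 gene fell, beside 6.61% of all genes for the averaged effect. It was Ptgr1, which is named after its values were seen and inactivates prostaglandins and leukotriene B4. It had 132 and 96 counts in GFP + Plum cells, 23 and 42 in T-bet + Plum cells, 125 and 188 in GFP + GATA3 cells, and 47 and 52 in T-bet + GATA3 cells (averaged log2 FC -1.41, SE 0.19, FDR 0.00222). All 4 libraries with FLAG-T-bet were lower than the rest, and Ptgr1 passed under all 15 alternatives that gave a value and in both single comparisons (FDR 0.0307 without HA-GATA3 and 0.0155 with it).

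Among 14 lipoxygenase and leukotriene genes 4 passed the filter and none rose or fell, and Alox5, Ltc4s and Fpr2 were at 0 in all libraries. The highest were Lta4h, which makes leukotriene B4 (averaged log2 FC 0.0077, FDR 0.971), and Mgst2 (-0.34, FDR 0.311). Among 18 genes of steroid synthesis 6 passed the filter and 10 had no count in any library, including Hsd3b1, Cyp17a1, Cyp21a1, Cyp11b1 and Nr5a1, which act after or around the Cyp11a1 step in the adrenal and gonads. The highest were the electron carrier Fdx1, which serves Cyp11a1 (0.36, FDR 0.443), and the mitochondrial protein Tspo (0.31, FDR 0.123). Fdx1 stood at 182 CPM in replicate 2 of GFP + Plum, its lowest library, and at 240 to 569 CPM in the others. In that list 1 gene rose, beside 8.55% of all genes for the averaged effect. It was Fdxr, the reductase that feeds Fdx1, also named after its values were seen (0.54, SE 0.10, FDR 0.00928). Fdxr stood at 18.1 to 19.4 CPM in the libraries without FLAG-T-bet and at 25.5 to 30.7 CPM in those with it. It passed under all alternatives except log2(TPM + 1) (FDR 0.127).

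Among 6 steroid receptors 2 passed the filter, and both rose, beside 8.55% of all genes for that effect. Nr3c2, the mineralocorticoid receptor, was called, with 7 and 2 counts in GFP + Plum cells, 10 and 20 in T-bet + Plum cells, 8 and 2 in GFP + GATA3 cells, and 23 and 19 in T-bet + GATA3 cells (averaged log2 FC 2.17, SE 0.57, FDR 0.0391). It had 10 or more counts only in the libraries with FLAG-T-bet, and passed the filter mainly through that group, where it is high. The call was lost when 5 of the 8 libraries were left out in turn, each of them except replicate 1 of GFP + Plum, replicate 1 of GFP + GATA3 and replicate 2 of T-bet + GATA3, and with length offsets and on log2(TPM + 1), with an FDR of 0.249 at most. Nr3c1, the glucocorticoid receptor, named after its values were seen, rose less, from 87.5 to 97.5 CPM without FLAG-T-bet to 116 to 129 CPM with it (0.40, SE 0.080, FDR 0.0129), and its FDR rose above 0.05 without replicate 2 of T-bet + Plum, either library of GFP + GATA3 or replicate 2 of T-bet + GATA3 and on log2(TPM + 1), to 0.257 at most. No gene of any of these lists was called or passed the FDR threshold when HA-GATA3 was added.

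**Figure D5:**
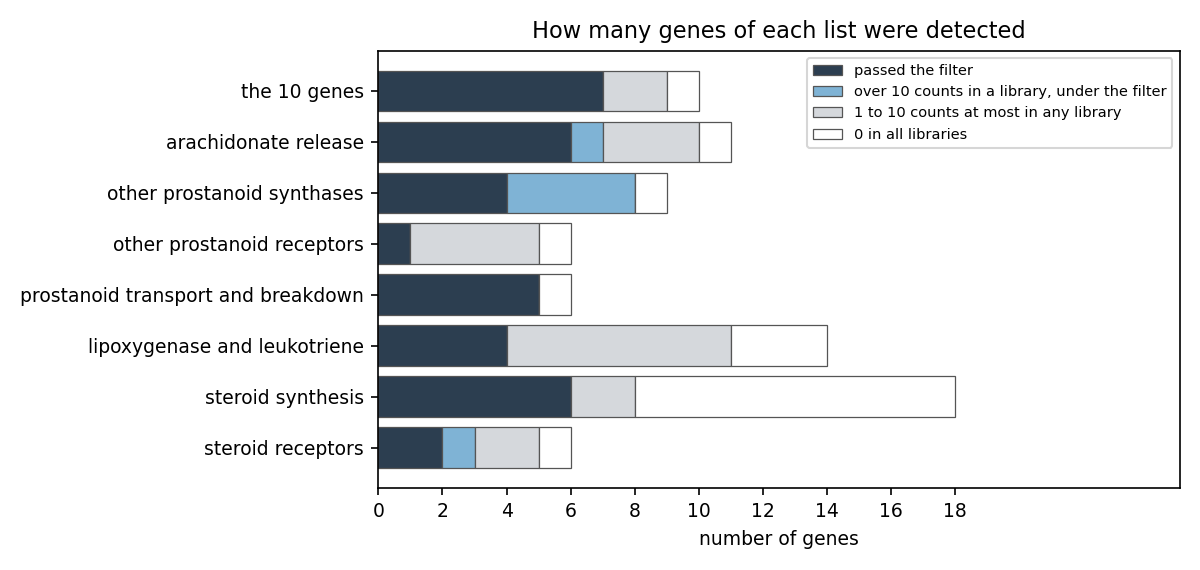
Number of genes in each list (x axis) that passed the filter, that had more than 10 counts in a library but did not pass, that had at most 10 counts in any library, or that had 0 in all 8 libraries. In the steroid synthesis list 10 of 18 genes are at 0, and in the arachidonate release list 6 of 11 passed.

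Since Hpgds and Alox5ap are also expressed by mast cells and other myeloid cells, markers of those cells were read beside them. Of 8 mast cell and basophil markers 7 had at most 10 counts in any library, and Mcpt4, Fcer1a, Ms4a2 and Tpsb2 were at 0 in all 8. Without Cpa3 the list summed to 0.541 CPM at most. Cpa3, the mast cell carboxypeptidase, was the exception, at 89.9 and 212 CPM in GFP + Plum cells, 3.36 and 3.76 in T-bet + Plum cells, 71.1 and 84.0 in GFP + GATA3 cells, and 11.4 and 13.6 in T-bet + GATA3 cells. It fell with FLAG-T-bet as Hpgds did (averaged log2 FC -4.01, SE 0.28, FDR 0.000101), but among the GFP + Plum libraries it was higher in replicate 2, where Hpgds was lower. Of 8 macrophage markers 6 had at most 10 counts in any library, and the list summed to 2.27 to 4.39 CPM. In that list Cd68 did not pass the test (averaged log2 FC 0.10, FDR 0.860), and Lyz2 fell (-2.58, FDR 0.00837), from 6 to 12 counts in the libraries without FLAG-T-bet to 1 or 2 in those with it. Lyz2 passed the filter on low counts only through the libraries without FLAG-T-bet, the group where it is high. The Lyz2 call was lost without replicate 2 of T-bet + Plum, without replicate 2 of GFP + GATA3 and with DESeq2 (FDR 0.0705 at most). Of 5 stromal markers 3 had at most 10 counts, and the list, led by Pdgfra and Pecam1, summed to 21.6 to 34.9 CPM without FLAG-T-bet and 9.71 to 12.4 CPM with it. Pdgfra fell for the averaged effect (FDR 0.000707), and Pecam1 did not pass the test. The part of these markers in the Hpgds and Alox5ap results was not tested.

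Of 11061 other protein-coding genes tested, those whose log2 CPM followed Hpgds most closely over the 8 libraries were Sapcd1 (Pearson r = 0.991), Fbxo28 (0.990), Gsn (0.989), Tiam1 (0.987) and Trpm1 (0.985). The 8 points share their lines and depth, and the values describe likeness only. All 5 were lower in the libraries with FLAG-T-bet than in those without, and of the 5 Gsn, an actin-severing protein, moved most. Gsn stood at 139 and 61.5 CPM in GFP + Plum cells, 10.1 and 12.2 in T-bet + Plum cells, 164 and 150 in GFP + GATA3 cells, and 36.0 and 14.0 in T-bet + GATA3 cells. It was lower in replicate 2 of both GFP + Plum and T-bet + GATA3, as Hpgds was. Tiam1, an activator of Rac, lay between 38.0 and 65.6 CPM with FLAG-T-bet and between 106 and 153 CPM without it. The averaged FLAG-T-bet log2 FC ranged from -2.92 for Gsn to -0.54 for Fbxo28 among the 5, beside -4.08 for Hpgds. Since the 5 were chosen for their likeness to Hpgds over the same libraries, these values restate that choice and are given with no test.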

How the data were processed

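RNA-seq libraries of 4 stimulated EL4 lines, 2 per line, were analysed. Reads were filtered with FastQC and Trim Galore and quantified with kallisto by the authors, per the labels on build mm10. The methods name Gencode M20 and the deposited tables M18. Each library's table, as the authors deposited it, gives for 136535 transcripts an estimated count, a TPM and an effective length (another column of lengths), with no pooling. The labels and the methods name different library kits, directional mRNA and Ribo-Zero in the labels and a small RNA kit in the methods. The strand setting is not given in the sources used here.

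Estimated counts were summed per gene (54146 genes), rounded, and fitted with edgeR 4.0.16 in R 4.3.3 (TMM, filterByExpr with a minimum count of 10, quasi-likelihood test, 4 groups in 1 fit, 4 residual degrees of freedom, Benjamini-Hochberg adjustment over 14791 genes). Calls needed an FDR no higher than 0.05 together with an absolute log2 FC over 1.5, the study's threshold, and for the interaction the FDR only. Approximate standard errors were taken from each log2 FC and its F statistic, and intervals cover 95%. CPM used TMM-scaled library sizes. TPM was summed per gene. The pipeline was tested on simulated data. Alternatives were DESeq2 1.42.0, other scalings, no filter, transcript length offsets, limma 3.58.1 on log2(TPM + 1), each contrast alone, a replicate block and leaving out each library. For genes outside the list of 10, these were added after seeing the data. Positions come from Gencode M21 (54079 of the gene IDs found), and promoters from RefSeq.

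Named genes were all 10 of the list, genes called in the pathway lists or otherwise the 2 highest by mean TPM, the 5 genes most like Hpgds (log2 CPM, prior count 2), Tbx21 and Gata3. The genes and lists were chosen with earlier results of these data known. Intervals and limits on counts cover counting error only where they are named so.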

Additional observations from a re-analysis of the deposited data

How the results depend on the processing

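With 2 libraries per line, precision is limited by their number and, for Ptgs1, Ptgs2, Ptgdr2, Ptger2 and Star, by depth. Values left out a library at a time assume that the lone library of its line varies like the others. The cause of the changes below was not tested.

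Among the 10 genes, the number called between T-bet + Plum and GFP + Plum was 1, and 2 by FDR alone and without the filter, and 0 to 1 when libraries were left out. Between T-bet + GATA3 and GFP + GATA3 it was 1, and 2 by FDR alone, with DESeq2, without the filter and with the libraries of the contrast alone, and 1 to 2 when libraries were left out (2 without either library of GFP + Plum, Ptgs2 being added). Between T-bet + GATA3 and GFP + Plum it was 1, and 2 by FDR alone and without the filter, 0 with the libraries of the contrast alone and 0 to 1 when libraries were left out. For the averaged FLAG-T-bet effect it was 2, and 4 by FDR alone, 1 with length offsets, 1 on log2(TPM + 1) and 1 to 2 when libraries were left out. Without the filter 1 gene, Hpgds, was called between T-bet + GATA3 and T-bet + Plum and 1, Hpgds, for the interaction, both 0 otherwise. Genes whose libraries did not overlap numbered 1 to 2 (FLAG-T-bet higher, Star added without replicate 1 of GFP + Plum), 2 to 3 (FLAG-T-bet lower, Ptgs2 added without replicate 2 of GFP + Plum), 0 to 1 (HA-GATA3 higher, Ptgir without replicate 2 of T-bet + Plum and Cyp11a1 without replicate 2 of T-bet + GATA3) and 0 to 1 (HA-GATA3 lower, Star without replicate 2 of GFP + Plum).

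Signs changed for differences that passed no test. With length offsets and on log2(TPM + 1), Star gave -0.19 and -0.064 between T-bet + GATA3 and GFP + GATA3, 0.10 and 0.020 between GFP + GATA3 and GFP + Plum, and -0.093 and -0.044 between T-bet + GATA3 and GFP + Plum. Cyp11a1 gave -0.071 (library size only) and -0.0017 (RLE) for the averaged FLAG-T-bet effect. Ptgs2 gave 0.035 on log2(TPM + 1) between T-bet + GATA3 and T-bet + Plum and, for the averaged HA-GATA3 effect, 0.042 (DESeq2), 0.00099 (RLE), 0.0068 (no filter), 0.11 (length offsets), 0.15 (log2(TPM + 1)) and 0.11 (replicate block). The Ptger4 interaction was -0.034 on log2(TPM + 1). When libraries were left out, Cyp11a1 ranged from -0.46 to 1.63 (T-bet + Plum against GFP + Plum), -0.86 to 0.19 (T-bet + GATA3 against GFP + GATA3), -0.27 to 0.79 (T-bet + GATA3 against T-bet + Plum), -0.11 to 1.98 (T-bet + GATA3 against GFP + Plum), -0.34 to 0.70 (averaged FLAG-T-bet) and -1.85 to 0.23 (interaction). Ptgir ranged from -0.24 to 0.12 (T-bet + GATA3 against GFP + GATA3) and -0.13 to 0.29 (T-bet + GATA3 against T-bet + Plum), Alox5ap from -0.46 to 0.058 (T-bet + GATA3 against T-bet + Plum) and -0.10 to 0.15 (averaged HA-GATA3), Ptgs2 from -4.32 to 0.28 (T-bet + GATA3 against T-bet + Plum) and -1.68 to 1.16 (averaged HA-GATA3), and Star from -0.20 to 0.51 (T-bet + GATA3 against GFP + Plum) and -0.70 to 0.41 (interaction).

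Libraries with the same number correlated in their deviations from line means by -0.046 to 0.30, and the labels do not say that they were harvested together, so no pairing was assumed. The replicate block changed no count of calls among the 10 genes. Over all genes, calls for T-bet + Plum against GFP + Plum numbered 446, and 814 without the filter and 236 on log2(TPM + 1), those for GFP + GATA3 against GFP + Plum 3, and 29 with DESeq2, and those for the interaction 0, and 15 with DESeq2.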
